A study of Arabidopsis thaliana with 102 samples.

Results

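The genes described here are 10 Arabidopsis genes of the mitochondrial stress response around the alternative oxidase AOX1A. They were taken by identifier from the table of gene expression, the set itself having been chosen with earlier results of these data known, and they make up 10 of the 34133 genes listed there. They are the alternative oxidases AOX1A (AT3G22370) and AOX1D (AT1G32350), the alternative NAD(P)H dehydrogenases NDA1 (AT1G07180), NDA2 (AT2G29990), NDB2 (AT4G05020) and NDB4 (AT2G20800), the dicarboxylate carrier DIC2 (AT4G24570), the small mitochondrial proteins UPOX (AT2G21640) and AT12CYS-2 (AT5G09570), and the outer membrane ATPase OM66 (AT3G50930). All 10 passed the filter on low values, which asked for an FPKM over 1 in at least 1 library. AOX1D passed it only through Tm-treated libraries in recovery. It was over 1 FPKM in 18 of 54 libraries, and its highest DMSO value was 0.283 FPKM. Its entry among the genes tested thus rests on the groups in which it is high.

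Plant mitochondria hold a respiratory bypass beside the cytochrome chain. Alternative NAD(P)H dehydrogenases pass electrons to ubiquinone without pumping protons, and the alternative oxidase takes them from ubiquinol straight to oxygen, so that electrons can flow with little ATP made. When mitochondria are disturbed, a retrograde signal to the nucleus raises a set of genes of which AOX1A is the standard reporter. In Arabidopsis this signal runs through NAC transcription factors that are held at the endoplasmic reticulum (ER) membrane until they are released, and that bind the mitochondrial dysfunction motif in the promoters of these genes.

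Whole seedlings 5 days old were kept for 6 h on tunicamycin (Tm) at 500 ng/mL, an inhibitor of protein N-glycosylation that causes ER stress, or on its solvent DMSO as the mock treatment. They were then moved to medium without Tm, and recovery was sampled after 0, 12 and 24 h. The genotypes were bzip28-2 and bzip60-2, T-DNA insertion mutants of the transcription factors bZIP28 and bZIP60 that drive the unfolded protein response, and Col-0, the wild type in whose background both mutants stand. Each of the 18 groups of genotype, treatment and time-point held 3 replicates of 12 pooled seedlings, 54 RNA-seq libraries in all, and 6 lists of ChIP-seq peaks were available for tagged bZIP28 (expressed from the 35S promoter in Col-0) and tagged bZIP60 (expressed from its own promoter in bzip60-2).

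Expression is given as FPKM, a unit that corrects the fragments of a gene for its transcript length and for the size of the library. The number of reads per library is unknown, and relative depth, read from the steps of low FPKM values, ran from 0.776 to 1.28. The correlation of libraries within a group was at least 0.965. BIP3, the ER chaperone gene that marks the response to Tm, lay between 300 and 711 FPKM in the Tm-treated Col-0 libraries, against 0.324 to 2.15 FPKM in the DMSO-treated ones. The mutated genes were not at 0. The mean of bZIP28 in DMSO-treated seedlings at 0 h was 24.7 FPKM in bzip28-2 and 11.1 FPKM in Col-0, while in Tm-treated seedlings at 12 h it was 11.2 FPKM in bzip28-2 and 19.9 FPKM in Col-0. bZIP60 averaged 142 FPKM in Tm-treated bzip60-2 and 209 FPKM in Tm-treated Col-0 at 12 h. An FPKM over a whole gene does not tell a truncated from a complete transcript, so that these values do not check the mutant labels. 1 library is treated as standing apart, by its BIP3 level and not by a test: replicate 2 of Tm-treated bzip28-2 at 24 h. It had the lowest BIP3 of the Tm-treated libraries, 27.3 FPKM, and results that rest on it are given with and without it.

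None of the 10 genes overlaps another annotated gene, and none of their 50-base exon windows occurs elsewhere in the TAIR10 genome. The mitochondrial dysfunction motif, CTTGNNNNNCAAG or CTTGNNNNNCACG, was searched on both strands in the 1000 bp before each annotated start. It was present at NDA1, NDB2 and UPOX, 3 of the 10 genes, and in 4.38% of 31509 promoters of that length. Because several of these genes have a long 5′ leader, the 1000 bp before the coding start were searched too, a window chosen after the first result was seen. There the motif was present at AOX1A, NDA1, NDB2, UPOX and AT12CYS-2, 5 of the 10 genes, and in 4.41% of 26697 windows. The matches are printed because they are the letters by which this gene set is usually recognised. Each is given 5′ to 3′ on the forward strand of TAIR10, on which all 5 genes lie, with the motif in capitals and 6 bases on each side.
AOX1A, chr3:7906512-7906536, across the annotated start: ctagctCTTGGCGACCACGcaagta
AOX1A, chr3:7906539-7906563, after the annotated start: ttccatCTTGCTCTCCAAGaaaaat
NDA1, chr1:2204028-2204052, 64 bp before the start: tcgtttCTTGCGCATCAAGttctgc
NDB2, chr4:2571769-2571793, 646 bp before the start, in reverse orientation: ccggttCGTGATGATCAAGaggttt
NDB2, chr4:2572342-2572366, 73 bp before the start: atctggCTTGGCCACCAAGattgtt
UPOX, chr2:9254321-9254345, 45 bp before the start: tagtaaCTTGCTCTCCAAGgagatc
AT12CYS-2, chr5:2970505-2970529, after the annotated start, in reverse orientation: aagaaaCGTGACGGGCAAGgggaat
UPOX and the second site of AOX1A held the same 13 letters, CTTGCTCTCCAAG.

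AOX1D, NDA2, NDB4, DIC2 and OM66 held no such match in either window. The elements bound by bZIP28 and bZIP60 were absent from the 1000 bp before the start of all 10 genes: ERSE-I, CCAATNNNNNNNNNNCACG, was in 1.29% and UPRE-I, TGACGTGG or TGACGTGA, in 4.34% of all promoters. The W-box, TTGACC or TTGACT, the element bound by WRKY factors, was in all 10 promoters, and in 67.2% of all promoters. The G-box, CACGTG, whose first letters are the last of ERSE-I, was at UPOX alone among the 10 and in 14.1% of all promoters. AOX1D is the gene on which the comparison of genotypes below turns. Of the elements searched, the W-box alone was found there, on the strand of the gene 60 bp before its start.
AOX1D, chr1:11668741-11668758, reverse strand: ttgaacTTGACCgagatt

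The alternative oxidases were raised by Tm in recovery. AOX1A, the isoform that carries most stress-induced capacity, was already well expressed in mock seedlings, with 33.6 to 58.2 FPKM over the 27 DMSO-treated libraries. At 12 h it had 142, 118 and 128 FPKM in Tm-treated against 41, 41 and 33.9 FPKM in DMSO-treated bzip28-2. In bzip60-2 it had 148, 170 and 171 FPKM with Tm, against 41.5, 58.2 and 51.2 FPKM with DMSO. In Col-0 it had 111, 117 and 101 FPKM with Tm, against 41.5, 43.3 and 36 FPKM with DMSO. All Tm-treated libraries lay above all DMSO-treated ones of their genotype, and the ratio of the means was 3.33 in bzip28-2, 3.24 in bzip60-2 and 2.73 in Col-0.

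All differences are on the log2(FPKM + 1) scale, which understates those between Tm and DMSO for low genes. Comparisons of such effects between groups can be made smaller or larger by the added 1. At 12 h AOX1A was 1.72 ± 0.11 (SE) higher with Tm in bzip28-2, 1.69 ± 0.14 in bzip60-2 and 1.42 ± 0.09 in Col-0 (limma, adjusted p = 0.000145, 0.000648 and 0.000202, n = 3 each). Genes were called between Tm and DMSO at an adjusted p under 0.01 with an absolute difference over 1. At 24 h AOX1A rose by 1.22 ± 0.12 in bzip60-2 and by 1.36 ± 0.15 in Col-0 (limma, adjusted p = 0.00215 and 0.00144). In bzip28-2 at 24 h it had 118, 65.1 and 140 FPKM with Tm, against 38.3, 54 and 44.2 FPKM with DMSO, a difference of 1.17 ± 0.31 that missed the call (limma, adjusted p = 0.0382). Without the library that stood apart, the second of the Tm values, the difference was 1.49 with an adjusted p of 0.00599.

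At 0 h, at the end of the Tm treatment, AOX1A already lay higher in each Tm-treated library than in the DMSO-treated libraries of its genotype, but of the 3 genotypes bzip28-2 alone passed the call, and its effect was not shown to differ from that of Col-0 (difference 0.50, limma, adjusted p = 0.585). It had 68.9, 81.4 and 86.4 FPKM in Tm-treated against 37.8, 38.9 and 33.6 FPKM in DMSO-treated bzip28-2, a difference of 1.08 ± 0.10 (limma, adjusted p = 0.00545). This call was lost without any 1 of its 6 libraries, with an adjusted p of up to 0.0323. The difference was 0.69 ± 0.21 in bzip60-2 and 0.57 ± 0.16 in Col-0 (limma, adjusted p = 0.158 and 0.14). The Tm and DMSO libraries of AOX1A did not overlap in any of the 9 pairs of genotype and time-point, and those of AOX1D, NDB2 and OM66 did not in 8 of 9. Non-overlap was found in 6 pairs each for NDA1 and NDA2 and in 4 for DIC2. It was found in 3 for AT12CYS-2, 2 for UPOX and 1 for NDB4. Groups of 3 libraries can also lie apart by chance. The share of all genes tested without overlap was not counted, so that these counts have no background and set no gene apart.

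AOX1D, the paralogue that is nearly silent in unstressed seedlings, came up during recovery. Over the 27 DMSO-treated libraries its highest value was 0.283 FPKM, and it was listed at 0 in 4 of them. At 12 h it had 9.21, 8.93 and 11.6 FPKM in Tm-treated bzip28-2, 12, 19.9 and 23.9 FPKM in Tm-treated bzip60-2 and 2.53, 3.28 and 2.29 FPKM in Tm-treated Col-0, with no overlap between any of these groups. The difference from DMSO was 3.39 ± 0.11 in bzip28-2, 4.02 ± 0.26 in bzip60-2 and 1.79 ± 0.11 in Col-0 (limma, adjusted p = 3.77e-05, 0.000314 and 0.000155, n = 3 each). The ratio of the means was 273, 110 and 44.6 in that order, over DMSO means of 0.0364, 0.169 and 0.0606 FPKM.

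At 24 h AOX1D had 32.4, 6.85 and 52.3 FPKM in Tm-treated bzip28-2, 30.6, 28.4 and 18 FPKM in Tm-treated bzip60-2, and 29.7, 22.6 and 31.8 FPKM in Tm-treated Col-0. The groups overlapped, and the spread was widest in bzip28-2 through the library that stood apart. AOX1D rose by 4.66 ± 0.21 in bzip60-2 and by 4.78 ± 0.14 in Col-0 (limma, adjusted p = 0.000401 and 4.94e-05). The difference in bzip28-2 was 4.51 ± 0.70 at an adjusted p of 0.01, which does not pass, and 5.32 at an adjusted p of 0.000794 without that library. Per length, AOX1D was the lower of the alternative oxidases: at 24 h in Tm-treated Col-0 it averaged 28 ± 4.86 FPKM and AOX1A 129 ± 24.9 FPKM (SD, n = 3). At 0 h AOX1D was not called in any genotype, with a highest value of 0.814 FPKM, in bzip60-2.

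**Figure D1:**
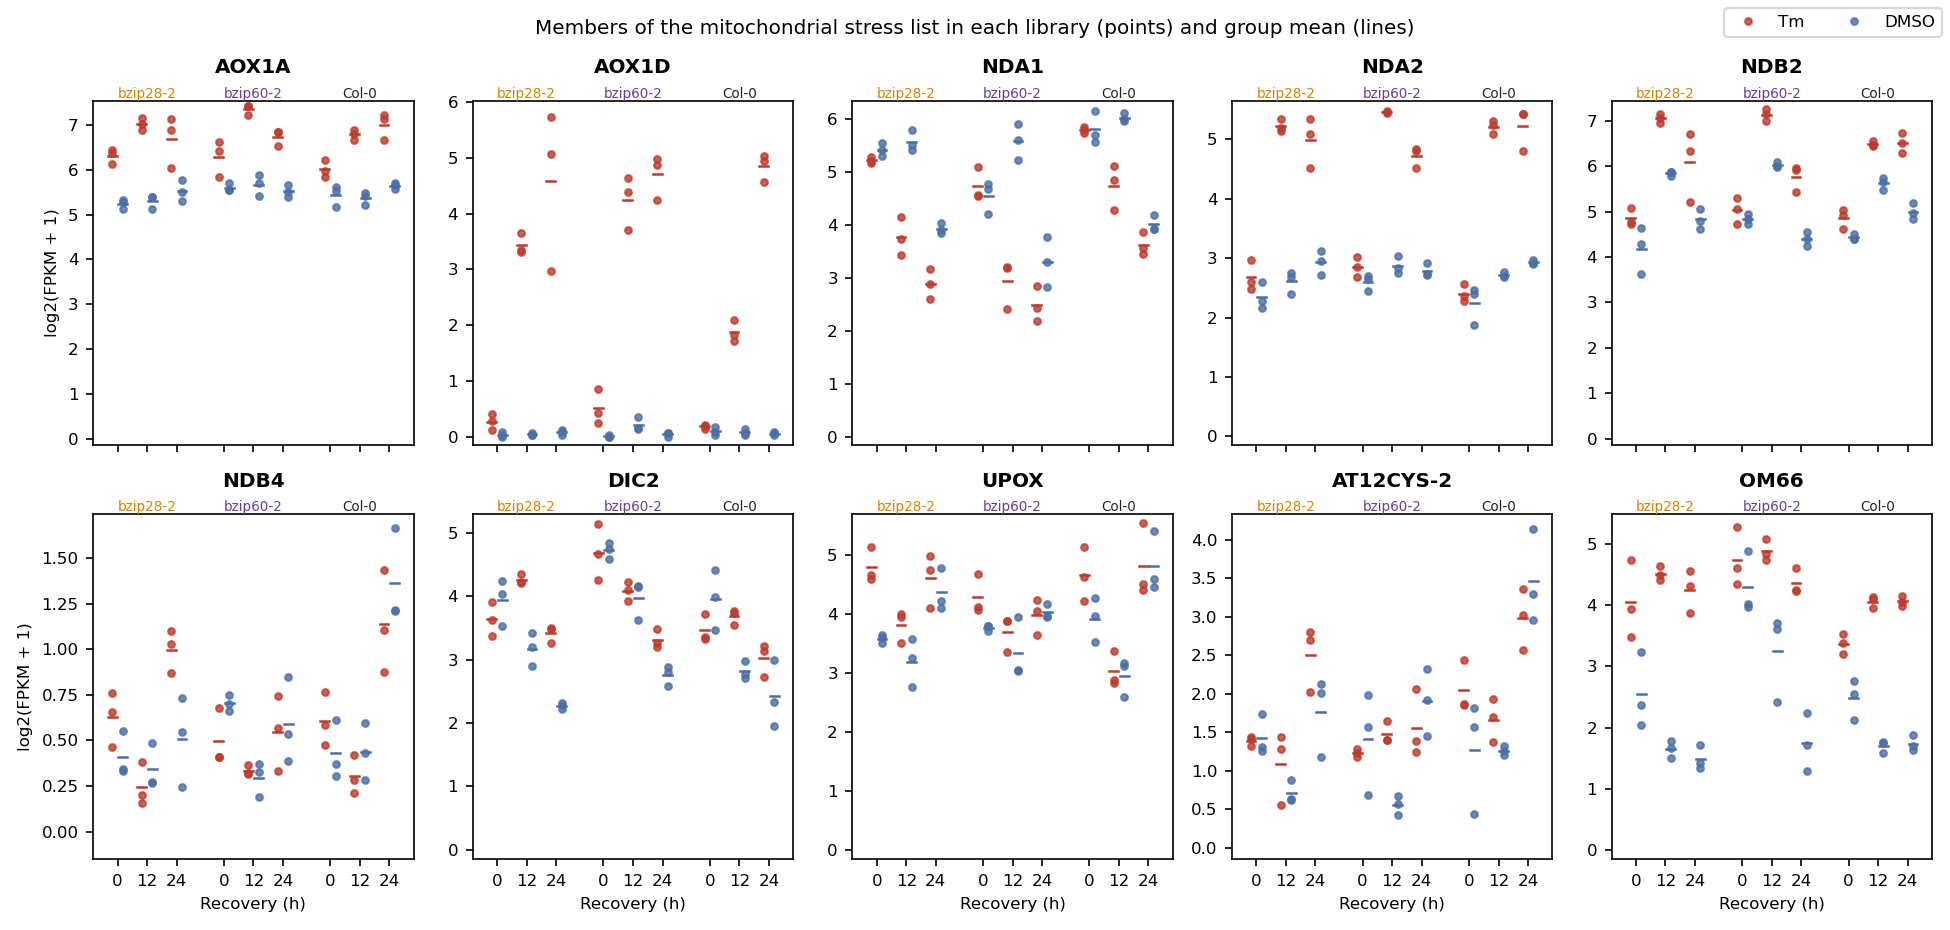
Level of each of the 10 genes, as log2(FPKM + 1), in every library (points) with the group mean (lines), for bzip28-2, bzip60-2 and Col-0 at 0, 12 and 24 h of recovery, Tm in red left of DMSO in blue. AOX1A, AOX1D, NDA2 and OM66 with Tm stand above DMSO at 12 and 24 h in every genotype, NDA1 with Tm stands below DMSO at 12 h, and for UPOX, AT12CYS-2 and NDB4 the treatments overlap in most groups.

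The NAD(P)H dehydrogenases moved in opposite directions. NDA1 and NDA2 face the matrix and NDB2 and NDB4 the intermembrane space. NDA2 had 39.6, 34.3 and 35.5 FPKM in Tm-treated against 5.42, 5.76 and 4.24 FPKM in DMSO-treated bzip28-2 at 12 h. It had 42.4, 42.7 and 43.3 FPKM with Tm against 5.72, 6.13 and 7.18 FPKM with DMSO in bzip60-2. In Col-0 it had 38.7, 36.6 and 33.1 FPKM with Tm, against 5.41, 5.48 and 5.8 FPKM with DMSO. The groups stood far apart in each genotype, with ratios of the means of 7.08 in bzip28-2, 6.75 in bzip60-2 and 6.51 in Col-0.

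NDA2 was thus higher with Tm by 2.61 ± 0.12, 2.58 ± 0.10 and 2.50 ± 0.07 in bzip28-2, bzip60-2 and Col-0 at 12 h (limma, adjusted p = 6.88e-05, 0.0001 and 2.73e-05). At 24 h it was higher by 2.05 ± 0.24, 1.93 ± 0.12 and 2.28 ± 0.18 (limma, adjusted p = 0.00451, 0.000679 and 0.0005), and in bzip28-2 without the library that stood apart by 2.28 (adjusted p = 0.0022). At 0 h its groups overlapped in all 3 genotypes, with differences of 0.34, 0.26 and 0.16.

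NDA1, whose transcript is known to follow light in leaves, fell with Tm at 12 h. It had 12.3, 16.8 and 9.8 FPKM in Tm-treated against 54.1, 44.3 and 41.2 FPKM in DMSO-treated bzip28-2, a difference of -1.79 ± 0.21. In bzip60-2 it had 8.22, 8.12 and 4.36 FPKM with Tm against 36.3, 58.9 and 47.4 FPKM with DMSO, a difference of -2.64 ± 0.28. In Col-0 it had 27.7, 33.4 and 18.3 FPKM with Tm against 61, 67.5 and 63 FPKM with DMSO, a difference of -1.28 ± 0.22. No Tm-treated library reached a DMSO-treated one, and all 3 differences passed the call (limma, adjusted p = 0.00112, 0.0013 and 0.00564). The call in Col-0 was lost without any 1 of its 3 DMSO-treated libraries or without Tm replicate 1, with differences from -1.46 to -1.04 and an adjusted p of up to 0.0228.

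At 24 h NDA1 was low with either treatment. Its mean was 6.49 ± 1.44 FPKM with Tm and 14.3 ± 1.02 FPKM with DMSO in bzip28-2, 4.71 ± 1.32 and 9.23 ± 3.3 FPKM in bzip60-2, and 11.5 ± 1.93 and 15.2 ± 1.7 FPKM in Col-0 (SD, n = 3 each). The differences of -1.04, -0.82 and -0.38 did not pass (limma, adjusted p = 0.0102, 0.0793 and 0.0829), but without the library that stood apart NDA1 was called lower in bzip28-2, with a difference of -1.18 (adjusted p = 0.00581).

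The levels of 8 photosynthetic genes used as shoot markers are given beside NDA1. Of the 8, 2 were called lower at 12 h in bzip28-2, none in bzip60-2 and 1 in Col-0, where 5.76%, 6.13% and 1.78% of all genes tested were called lower. Their sum at 12 h lay between 12996 and 22100 FPKM with Tm and between 31154 and 38307 FPKM with DMSO in bzip28-2, between 6395 and 14419 FPKM and between 26329 and 35342 FPKM in bzip60-2, and between 24633 and 32162 FPKM and between 42506 and 50606 FPKM in Col-0. None of the 8 markers was at 0 in any group. Their part in the fall of NDA1 at 12 h was not tested, and in whole seedlings fewer cells of a type and less RNA per cell cannot be told apart.

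NDB2, which with AOX1A can form a complete bypass, passed the call at 12 h in both mutants and at 24 h in bzip60-2 and Col-0. At 12 h it had 142, 133 and 123 FPKM in Tm-treated against 58.1, 58 and 54.3 FPKM in DMSO-treated bzip28-2. It had 126, 153 and 142 FPKM with Tm against 62.1, 67.8 and 63.6 FPKM with DMSO in bzip60-2. In Col-0 it had 87.1, 93.1 and 85.7 FPKM with Tm against 43.7, 49.2 and 52.2 FPKM with DMSO. The groups did not overlap, and the differences were 1.21 ± 0.07, 1.11 ± 0.09 and 0.86 ± 0.08 (limma, adjusted p = 0.000118, 0.000656 and 0.0006), of which the last lies under the fold threshold and is no call.

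At 24 h NDB2 was 1.52 ± 0.14 higher with Tm in Col-0 (limma, adjusted p = 0.000835) and 1.37 ± 0.17 higher in bzip60-2 (limma, adjusted p = 0.00351). The bzip60-2 call was lost without any 1 of DMSO replicates 1 and 3 and Tm replicates 1 and 2, with an adjusted p of up to 0.0209. In bzip28-2 it had 80.3, 35.9 and 104 FPKM with Tm against 26.8, 32.5 and 23.7 FPKM with DMSO. That difference of 1.26 ± 0.40 did not pass (limma, adjusted p = 0.0614) and was 1.70 at an adjusted p of 0.00507 without the library that stood apart. The genotypes were compared directly, and their effects on NDB2 did not differ past the threshold at any time-point. NDB4, the other external dehydrogenase, was barely expressed, over 1 FPKM in 7 of 54 libraries, and was not called in any comparison of Tm and DMSO. Its highest mean levels were in Col-0 at 24 h, with 0.836, 1.7 and 1.15 FPKM in Tm-treated and 1.32, 2.17 and 1.31 FPKM in DMSO-treated seedlings.

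OM66, an AAA-type ATPase of the outer membrane that is also raised by salicylic acid, also rose in recovery. At 12 h it had 21.5, 24 and 20.4 FPKM in Tm-treated against 2.42, 1.84 and 2.19 FPKM in DMSO-treated bzip28-2. It had 25.8, 27.6 and 32.8 FPKM with Tm against 12.1, 4.37 and 11.2 FPKM with DMSO in bzip60-2. In Col-0 it had 16.1, 16.5 and 14.5 FPKM with Tm against 2.36, 2.38 and 2 FPKM with DMSO. No groups overlapped, but the DMSO-treated bzip60-2 libraries stood above those of the other genotypes.

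The difference at 12 h was 2.87 ± 0.11 in bzip28-2 and 2.36 ± 0.09 in Col-0 (limma, adjusted p = 4.68e-05 and 4.38e-05), and 1.64 ± 0.36 in bzip60-2, which did not pass (limma, adjusted p = 0.0143). At 24 h OM66 rose in all 3 genotypes, by 2.76 ± 0.21, 2.62 ± 0.26 and 2.33 ± 0.10 in bzip28-2, bzip60-2 and Col-0 (limma, adjusted p = 0.00171, 0.00212 and 9.44e-05), and in bzip28-2 without the library that stood apart by 2.95 (adjusted p = 0.00135). The bzip28-2 call at 24 h was lost without DMSO replicate 1, DMSO replicate 3 or Tm replicate 1 (adjusted p up to 0.0158), and the bzip60-2 call without DMSO replicate 1, Tm replicate 1 or Tm replicate 2 (adjusted p up to 0.0141). At 0 h OM66 did not pass in any genotype. Its mean was 16.8 FPKM with Tm and 5.23 FPKM with DMSO in bzip28-2, without overlap, a difference of 1.51 ± 0.44 (limma, adjusted p = 0.0916). In bzip60-2 the means were 26.9 and 19.5 FPKM, the groups overlapped, and the difference was 0.45 ± 0.35 (adjusted p = 0.537). Col-0 had 9.45, 8.18 and 10.5 FPKM with Tm against 4.83, 3.37 and 5.8 FPKM with DMSO, a difference of 0.89 ± 0.19 (adjusted p = 0.0756).

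DIC2, which carries dicarboxylates across the inner membrane, passed the call in bzip28-2, at 12 and 24 h. At 12 h it had 17.5, 19.4 and 17.7 FPKM in Tm-treated against 9.7, 8.2 and 6.46 FPKM in DMSO-treated bzip28-2. It had 16.1, 14.2 and 17.7 FPKM with Tm against 11.3, 16.8 and 16.7 FPKM with DMSO in bzip60-2, where the groups overlapped. In Col-0 it had 10.7, 12.3 and 12.6 FPKM with Tm against 5.83, 6.87 and 5.53 FPKM with DMSO. The differences were 1.09 ± 0.15, 0.10 ± 0.18 and 0.86 ± 0.10 (limma, adjusted p = 0.00193, 0.67 and 0.00175), and that of Col-0 lies under the fold threshold. At 24 h DIC2 rose by 1.14 ± 0.11 in bzip28-2 (limma, adjusted p = 0.00305), and by 1.10 without the library that stood apart (adjusted p = 0.00583), against differences of 0.56 ± 0.13 in bzip60-2 and 0.60 ± 0.30 in Col-0. The bzip28-2 call was lost at 12 h without DMSO replicate 2, DMSO replicate 3 or Tm replicate 2, with differences from 0.95 to 1.21, and at 24 h without any 1 of the DMSO replicates or Tm replicate 1, with an adjusted p of up to 0.0255.

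UPOX, a small protein first known from oxidative stress, and AT12CYS-2, a small protein with twin CX9C motifs, were not called in any of the 9 comparisons of Tm and DMSO. UPOX came nearest at 0 h in bzip28-2, with 24.5, 34.1 and 23.2 FPKM with Tm against 11.5, 11.1 and 10.4 FPKM with DMSO, a difference of 1.22 ± 0.15 (limma, adjusted p = 0.0117). At 24 h in Col-0 it had 20.2, 45.7 and 21.8 FPKM with Tm against 21.1, 41.7 and 23.1 FPKM with DMSO, with replicate 2 highest under either treatment and an unadjusted 95% interval of the difference from -0.99 to 0.98. AT12CYS-2 had 1.63, 1.64 and 2.14 FPKM in Tm-treated against 0.34, 0.485 and 0.59 FPKM in DMSO-treated bzip60-2 at 12 h, a difference of 0.93 ± 0.10 that passed the p threshold and not the fold threshold (limma, adjusted p = 0.00155). Its highest mean levels were again in Col-0 at 24 h, with 4.95, 9.28 and 7.09 FPKM with Tm against 6.77, 16.7 and 8.86 FPKM with DMSO, which overlapped.

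Counted over the set, nearly all calls came during recovery and not at the end of the treatment. At 0 h, 1 of the 10 genes was called in bzip28-2, none in bzip60-2 and none in Col-0, where 1.52%, 0.851% and 0.951% of 21864 genes tested were called by limma at the same thresholds. At an unadjusted p under 0.05 the counts at 0 h were 6, 3 and 4. No share of all genes at that unadjusted threshold is given, here or below, so that such counts have no like background. At 12 h, 7 of 10 were called in bzip28-2, 6 higher and 1 lower, where 14.4% of all genes tested were called, 8.65% higher and 5.76% lower. In bzip60-2 5 were called, 4 higher and 1 lower, where 14.2% of all genes were called, 8.08% higher and 6.13% lower. In Col-0 5 were called, 4 higher and 1 lower, where 8.96% of all genes were called, 7.18% higher and 1.78% lower. At 24 h, 3 of 10 were called in bzip28-2, 5 in bzip60-2 and 5 in Col-0, all higher, where 5.73%, 6.33% and 10.6% of all genes were called in either direction and 3.93%, 5.36% and 7.39% higher. Without replicate 2 of Tm-treated bzip28-2 the count at 24 h was 7 of 10, AOX1A, AOX1D, NDA1, NDA2, NDB2, DIC2 and OM66, and 2219 genes were called in place of 1252. The median difference of the 10 genes in Col-0 was 0.30 at 0 h, 0.86 at 12 h and 0.98 at 24 h, beside 0.00, 0.08 and 0.04 over all genes tested.

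In total 31 of 90 comparisons of a gene between Tm and DMSO were called, 28 higher and 3 lower, and 22 of the 31 kept their call when each library was left out in turn. The 9 that did not are those named above together with AOX1A in bzip60-2 at 24 h (lost without DMSO replicates 1 or 3 or Tm replicates 1 or 2, adjusted p up to 0.0147) and NDA2 in bzip28-2 at 24 h (lost without any 1 of the DMSO libraries, Tm replicate 1 or Tm replicate 3, adjusted p up to 0.0302). With a replicate block in the fit, 22 comparisons were called. Those lost were AOX1A in bzip28-2 at 0 h and NDA1 in Col-0 at 12 h. At 24 h they were AOX1A in bzip60-2 and Col-0, NDA2 and DIC2 in bzip28-2, NDB2 in bzip60-2, and OM66 in both mutants.

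**Figure D2:**
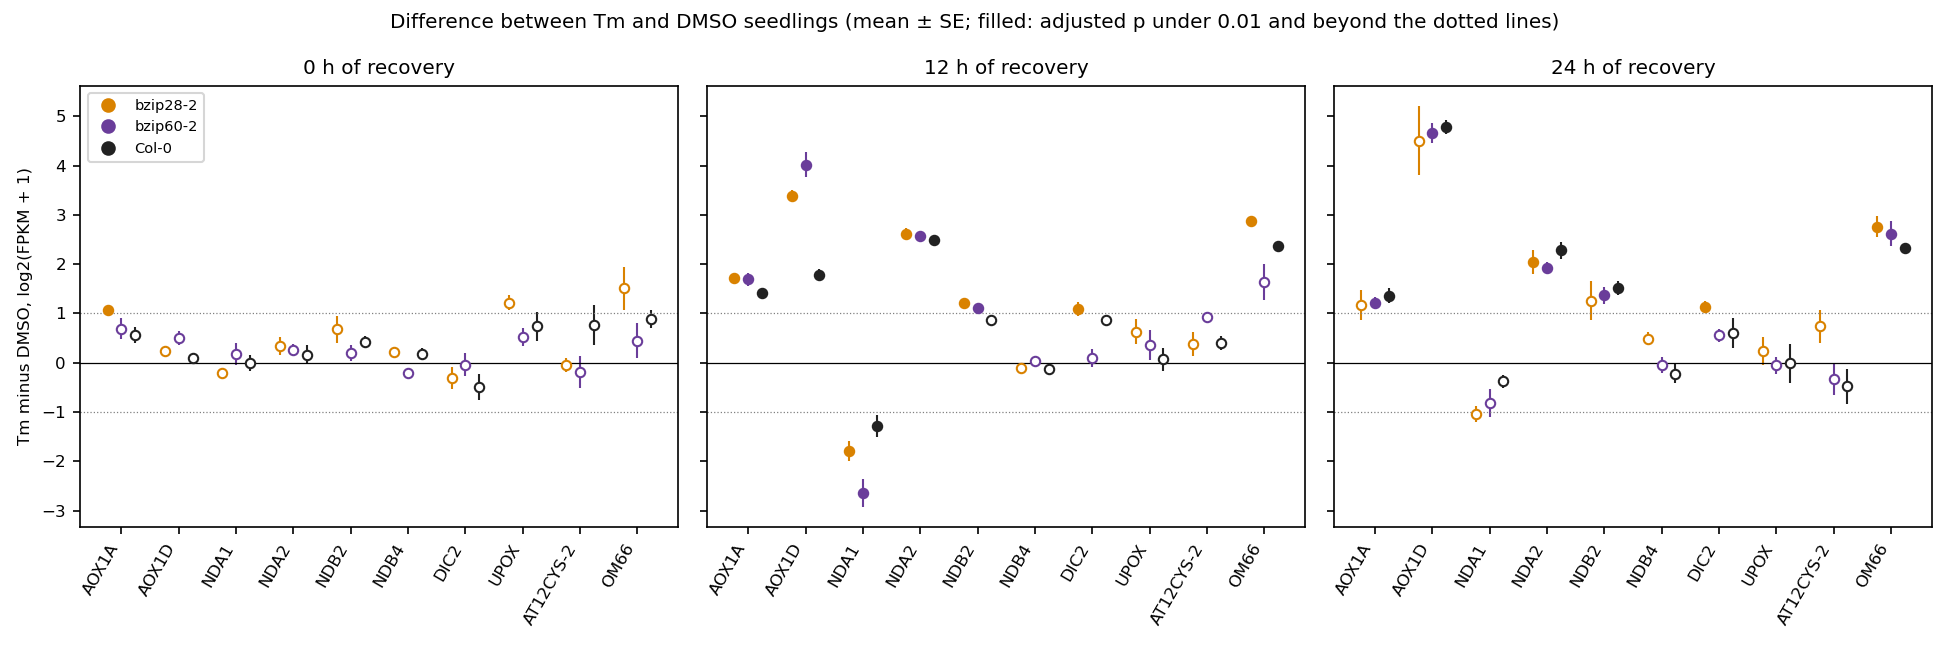
Difference between Tm-treated and DMSO-treated seedlings for each of the 10 genes at 0, 12 and 24 h of recovery, on the log2(FPKM + 1) scale, as mean with SE for bzip28-2 (orange), bzip60-2 (purple) and Col-0 (black). Filled points passed the call, and the dotted lines mark differences of 1 and -1. At 0 h only AOX1A in bzip28-2 is filled, at 12 h AOX1D spreads from 1.79 in Col-0 to 4.02 in bzip60-2, and at 24 h its 3 points lie between 4.51 and 4.78.

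Whether the loss of bZIP28 or bZIP60 altered the response was tested as the difference between mutant and Col-0 in the effect of Tm, called at an adjusted p under 0.05. AOX1D at 12 h was the only one of the 10 genes to pass. Its Tm effect was 1.59 larger in bzip28-2 than in Col-0 (unadjusted 95% interval 1.24 to 1.95, limma, adjusted p = 0.00163) and 2.23 larger in bzip60-2 than in Col-0 (1.58 to 2.88, adjusted p = 0.00414), where 4.18% and 6.30% of all genes tested were called. Both calls held without each of the 12 libraries in turn, with differences from 1.49 to 1.70 and from 2.03 to 2.50. The bzip60-2 effect was 0.63 larger than the bzip28-2 effect (-0.02 to 1.28, adjusted p = 0.694), so that the order of the mutants was not resolved. By the ratio of the means that order was reversed, with 273 in bzip28-2 and 110 in bzip60-2 against 44.6 in Col-0. The sizes of these differences thus depend on the scale. Between the mutants none of the 10 genes passed at 0, 12 or 24 h, with 0.402%, 0.329% and 0.0640% of all genes called and 2, 3 and 3 of the 10 at an unadjusted p under 0.05. The 14 genes behind the last share became 33 without the library that stood apart, again with none of the 10. At 24 h the AOX1D differences from Col-0 were -0.28 (-1.98 to 1.43) for bzip28-2 and -0.13 (-0.71 to 0.45) for bzip60-2, with adjusted p of 0.916 and 0.875. Without the library that stood apart, the bzip28-2 difference at 24 h was 0.53 (adjusted p = 0.382).

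On the log2(FPKM + 1) scale the difference at 12 h lay in the Tm-treated seedlings. With AOX1D at no more than 0.283 FPKM in any DMSO-treated library, the added 1 leaves mock groups little room to differ. Between mutant and Col-0 under Tm, AOX1D was 1.56 ± 0.15 higher in bzip28-2 (limma, adjusted p = 0.00851, 0.649% of all genes called) and 2.36 ± 0.26 higher in bzip60-2 (adjusted p = 0.00476, 3.78% called), both at the thresholds used for Tm and DMSO. These direct calls were less firm: the first was lost without any 1 of its 6 libraries and the second without any 1 of the Col-0 libraries or bzip60-2 replicates 2 and 3, with adjusted p of up to 0.0507 and 0.028. Under Tm at 12 h the differences between bzip60-2 and Col-0 were 0.57, 0.65 and 0.83 for AOX1A, NDB2 and OM66, with adjusted p of 0.00811, 0.00585 and 0.00573 but under the fold threshold, and OM66 differed by 1.55 with DMSO too. NDA1 averaged 6.9 FPKM in bzip60-2 and 26.4 FPKM in Col-0 under Tm, without overlap, a difference of -1.80 ± 0.31 that missed the p threshold (limma, adjusted p = 0.0103). Under Tm none of the 10 genes was called between mutant and Col-0 at 0 h, where 0.0366% of all genes were called in each mutant, nor at 24 h, where 0.178% were called in bzip28-2 and 0.366% in bzip60-2. The 39 genes behind the share for bzip28-2 at 24 h became 2 without the library that stood apart, with none of the 10 among them. At an unadjusted p under 0.05 these counts were 2 and 5 at 0 h and 1 and 4 at 24 h for bzip28-2 and bzip60-2. In DMSO-treated seedlings at 12 h AOX1D averaged 0.0364 FPKM in bzip28-2, 0.169 FPKM in bzip60-2 and 0.0606 FPKM in Col-0, and the groups overlapped.

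Other genes differed between genotypes by amounts that did not pass. For AOX1A at 12 h the interval of the difference was -0.04 to 0.62 for bzip28-2 and -0.13 to 0.66 for bzip60-2. NDB2 gave 0.35 (0.11 to 0.58, limma, adjusted p = 0.106) in bzip28-2, and OM66 gave 0.50 (0.19 to 0.81, adjusted p = 0.0754). In bzip60-2 NDA1 gave -1.36 (-2.19 to -0.52, adjusted p = 0.0627) and DIC2 gave -0.76 (-1.23 to -0.28, adjusted p = 0.0655). At 0 h no gene of the 10 passed in either mutant, with 0.0366% and 0.0732% of all genes called and 1 and 2 of the 10 at an unadjusted p under 0.05. At 24 h none passed, with 1.10% and 1.37% called and 3 and 0 of the 10 at an unadjusted p under 0.05.

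**Figure D3:**
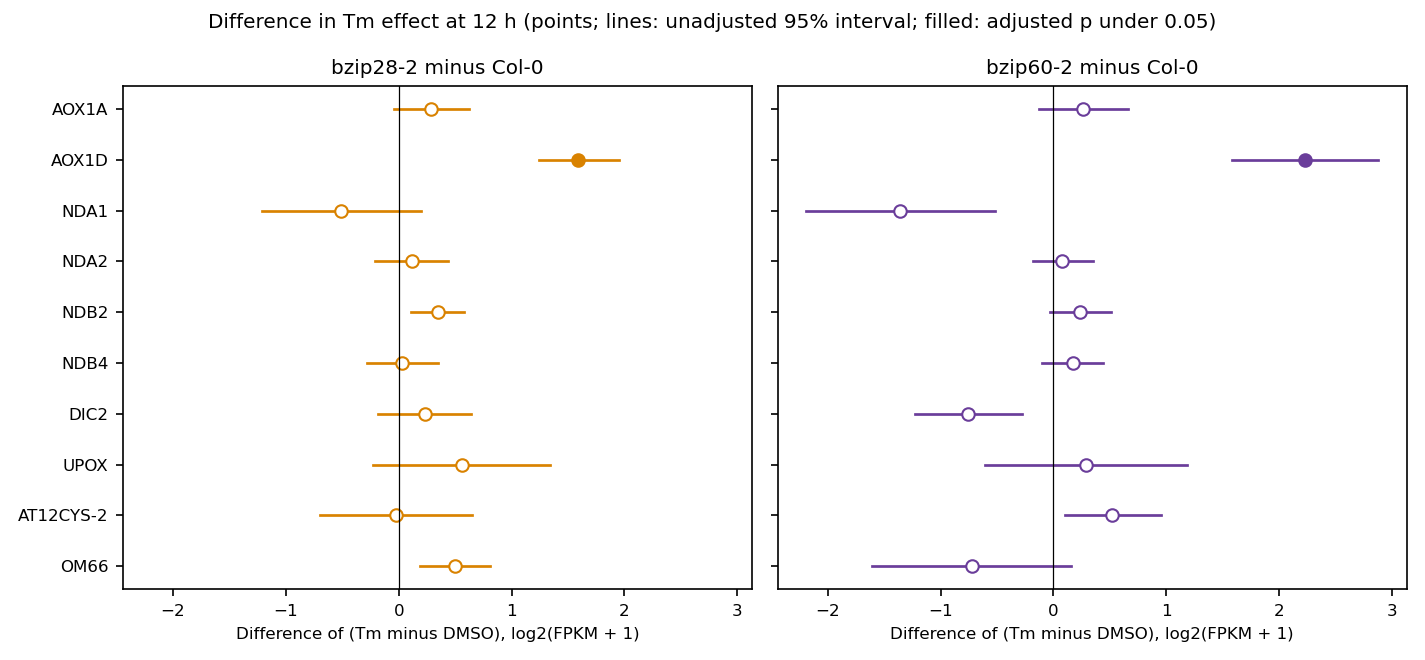
Difference in the effect of Tm at 12 h of recovery between bzip28-2 and Col-0 (left) and between bzip60-2 and Col-0 (right) for the 10 genes, on the log2(FPKM + 1) scale, with unadjusted 95% intervals. Only AOX1D is filled, at 1.59 and 2.23, and NDA1 and DIC2 in bzip60-2 lie below 0 with intervals that miss it.

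DMSO-treated mutants differed from DMSO-treated Col-0 by less than the call for all 10 genes at every time-point, where 0.0183% of all genes were called for bzip28-2 at each time-point and 0.00915%, 0.0229% and 0.0183% for bzip60-2 at 0, 12 and 24 h. At an unadjusted p under 0.05, for which no share of all genes is given, the counts were 0, 3 and 2 of the 10 for bzip28-2 and 5 at each time-point for bzip60-2. In bzip60-2 the mock level of OM66 was 15.3, 14.7 and 28.7 FPKM at 0 h, against 4.83, 3.37 and 5.8 FPKM in Col-0, a difference of 1.82 ± 0.31 (limma, adjusted p = 0.07). At 12 h it was 1.55 ± 0.36 higher in bzip60-2 (adjusted p = 0.0861), and DIC2 was 1.16 ± 0.18 higher (adjusted p = 0.0399). Both genes thus stood above Col-0 without overlap in mock bzip60-2 at 12 h. Others stood below Col-0 without overlap and without passing. NDA1 averaged 22.7 FPKM in bzip60-2 and 55.4 FPKM in Col-0 at 0 h, a difference of -1.24 ± 0.22 (adjusted p = 0.0728). AT12CYS-2 averaged 0.472 FPKM in bzip60-2 and 1.39 FPKM in Col-0 at 12 h, a difference of -0.70 ± 0.08 (adjusted p = 0.0284). At 24 h it averaged 2.54 FPKM in bzip28-2, 2.84 FPKM in bzip60-2 and 10.8 FPKM in Col-0, with differences of -1.70 ± 0.40 and -1.57 ± 0.38 (adjusted p = 0.607 and 0.217). At 24 h the OM66 mock level was 2.48 ± 1.14 FPKM in bzip60-2 and 2.33 ± 0.288 FPKM in Col-0 (SD, n = 3 each).

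The change of the Tm effect during recovery was tested within each genotype at an adjusted p under 0.05. From 0 to 12 h the effect changed for 5 of the 10 genes in bzip28-2, 6 in bzip60-2 and 7 in Col-0, against 32.6%, 31.1% and 26.2% of all genes tested. AOX1D grew by 3.16, 3.52 and 1.71, NDA2 by 2.28, 2.33 and 2.34 and AOX1A by 0.64, 1.00 and 0.85, while NDA1 changed by -1.59, -2.82 and -1.27, in that order of genotypes (limma, highest adjusted p = 0.0166). With median-ratio scaling the AOX1A change did not pass in either mutant, and in 1 fit over all 54 libraries it did not pass in bzip28-2. DIC2 grew by 1.40 in bzip28-2 and 1.35 in Col-0, OM66 by 1.47 in Col-0, and NDB2 by 0.91 in bzip60-2 and 0.45 in Col-0, the last of which was lost in 10 of 12 fits without 1 library. AT12CYS-2 grew by 1.12 in bzip60-2, lost in 11 of 12. From 12 to 24 h none of the 10 changed in bzip28-2 (2 at an unadjusted p under 0.05), 3 changed in bzip60-2 and 2 in Col-0, against 5.03%, 11.1% and 13.6% of all genes. AOX1D grew by a further 2.99 ± 0.18 in Col-0 (limma, adjusted p = 3.78e-05), and its change was 1.12 ± 0.76 in bzip28-2 and 0.64 ± 0.35 in bzip60-2, neither of which passed. Without replicate 2 of Tm-treated bzip28-2 at 24 h, the change in bzip28-2 was 1.93 and passed (adjusted p = 0.00423). Over the same hours NDA2 changed by -0.65 ± 0.15, NDA1 by 1.82 ± 0.43 and AT12CYS-2 by -1.27 ± 0.34 in bzip60-2 (adjusted p = 0.0253, 0.0252 and 0.0427), lost in 3, 4 and 10 of 12 fits without 1 library, and NDB2 grew by 0.65 ± 0.17 in Col-0 (adjusted p = 0.0331), lost in 9 of 12.

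Levels also moved without Tm. In DMSO-treated Col-0, NDB2 had 43.7, 49.2 and 52.2 FPKM at 12 h, against 20.2, 20.2 and 21.8 FPKM at 0 h, a rise of 1.18 ± 0.08 (limma, adjusted p = 0.00166, 3.78% of all genes called). NDA1 had 17.1, 14.2 and 14.2 FPKM at 24 h, against 46, 69.5 and 50.6 FPKM at 0 h, a fall of 1.78 on the log2 scale (SE 0.17, adjusted p = 0.00405, 2.91% called). The NDB2 call was lost without 12 h replicate 2 or 3 (adjusted p up to 0.0118), and the NDA1 call without 0 h replicate 3 or any 1 of the 24 h libraries (adjusted p up to 0.0292). Mock AT12CYS-2 was 2.19 ± 0.47 higher at 24 h than at 0 h, which did not pass (adjusted p = 0.0262). Changes of treated seedlings over time therefore contain changes of the mock seedlings, and the differences above are given against the mock group of the same time-point.

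The 10 genes were set beside 5 further lists of mitochondrial context, namely other components of alternative respiration and carriers, other genes of the mitochondrial dysfunction regulon, regulators of retrograde signalling, chaperones and proteases of the matrix and inner membrane, and the cytochrome chain with ATP synthase. Of the other alternative respiration genes, 8 of 11 were tested, and in Col-0 1 rose at 12 h and 1 at 24 h. Over all genes tested in Col-0, 7.18% were called higher at 12 h and 7.39% at 24 h, and 0.951% were called in either direction at 0 h. DIC1, the paralogue of DIC2, had a mean of 51.5 FPKM with Tm and 18.4 FPKM with DMSO at 12 h, a difference of 1.43 ± 0.12 (limma, adjusted p = 0.000539). AT12CYS-1, the abundant paralogue of AT12CYS-2, had 882 and 344 FPKM at 24 h, a difference of 1.34 ± 0.18 (limma, adjusted p = 0.00262). The paralogues AT12CYS-1 and AT12CYS-2 thus differed in their calls, and the test of that difference between genes was not made.

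Of 12 other dysfunction genes, 1 rose at 0 h, 3 at 12 h and 4 at 24 h in Col-0. TIN1, named for its induction by Tm and a gene of the ER stress response too, stood at 196 FPKM with Tm and 2.66 FPKM with DMSO at 0 h already. CYP81D8, a cytochrome P450 common to many stress responses, had 39.2 FPKM with Tm and 2.62 FPKM with DMSO at 12 h, and TIM17-1, an isoform of an inner membrane import subunit, had 5.6 and 0.169 FPKM. Of 10 retrograde regulators tested, 6 rose and 1 fell at 12 h, and 4 rose at 24 h. WRKY40, a repressor in this signalling, had 40.6 FPKM with Tm and 1.67 FPKM with DMSO at 12 h, a difference of 3.93 ± 0.19 (limma, adjusted p = 8.29e-05). WRKY63 and the NAC factor NAC016 rose by 2.70 and 2.13 at 24 h. The gene that fell, named after its value was seen, was MYB29, a regulator of aliphatic glucosinolate genes, with a difference of -1.54.

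None of 13 chaperones and proteases was called in any genotype or at any time-point, and their medians in Col-0 were 0.18 at 12 h and 0.38 at 24 h. Of 19 genes of the cytochrome chain and ATP synthase, none was called at 12 h and 1 at 24 h in Col-0, CYTC-2, a cytochrome c gene, with 197 FPKM with Tm and 69.9 FPKM with DMSO (difference 1.48 ± 0.16, limma, adjusted p = 0.00135). The median of that list was 0.13 at 12 h and 0.48 at 24 h, beside 0.08 and 0.04 over all genes, of which 8.96% and 10.6% were called in either direction. Among 8 markers of the root, 1 was lower at 0 h and none was called at 12 or 24 h in Col-0, and of 8 markers of the shoot 1 was lower at 12 h and 7 at 24 h. Shoot marker sums at 24 h in Col-0 lay between 12685 and 15792 FPKM with Tm and between 39278 and 51575 FPKM with DMSO, and root marker sums between 86.9 and 92.3 FPKM and between 113 and 146 FPKM. The part of these shifts in the differences of the 10 genes was not tested.

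**Figure D4:**
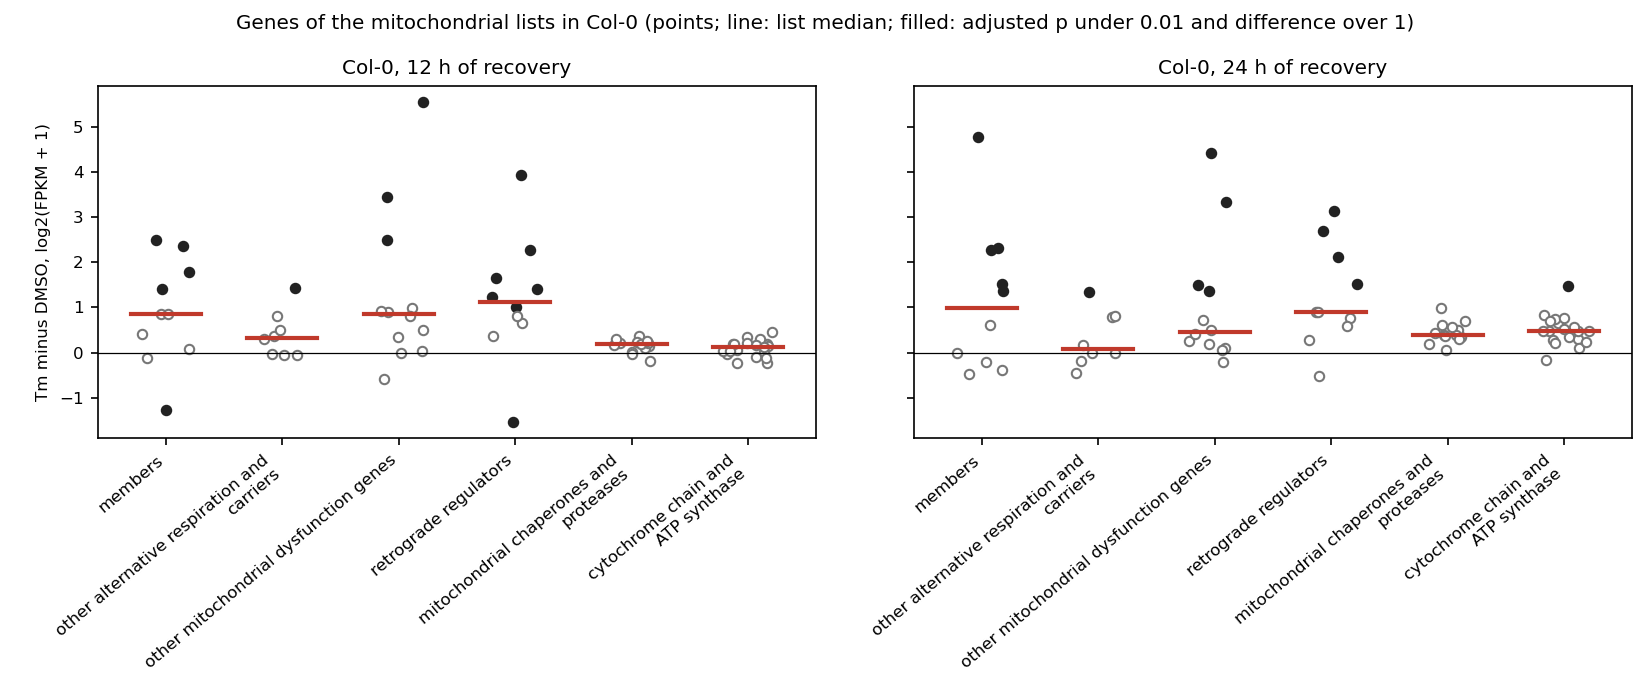
Difference between Tm-treated and DMSO-treated Col-0 seedlings at 12 h (left) and 24 h (right), on the log2(FPKM + 1) scale, for the 10 genes and the 5 other mitochondrial lists, with 1 point a gene, a red line at each list's median and filled points for calls. The 10 genes (medians 0.86 and 0.98) and the retrograde regulators (medians 1.13 and 0.89) reach high values. So do single genes of the other dysfunction list, most of which was not called: TIN1 lies at 5.56 and 4.43 and CYP81D8 at 3.46 and 3.33. The chaperones and the cytochrome chain stay below 1 apart from CYTC-2 at 24 h.

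As a description of how far the set acts together, each gene was correlated with AOX1A over the 54 libraries, which share the treatments and time-points. Pearson's r on log2(FPKM + 1) was 0.89 for NDA2, 0.85 for AOX1D, 0.78 for OM66 and 0.76 for NDB2, and between 0.06 and 0.26 for NDB4, UPOX, AT12CYS-2 and DIC2. For NDA1 it was -0.58. Within the 27 DMSO-treated libraries r with AOX1A was 0.64 for NDA2, 0.12 for AOX1D, 0.20 for OM66 and 0.16 for NDB2. Within the 27 Tm-treated libraries it was 0.86, 0.76, 0.58 and 0.92 in the same order. The values over all 54 libraries thus hold the difference between treatments given above. NDB4, AT12CYS-2 and UPOX resembled each other more, with r of 0.83 for NDB4 and AT12CYS-2, and DIC2 resembled OM66, with r of 0.66 over all and 0.82 over the 27 DMSO-treated libraries. Among the 21863 other genes tested, NDA2 ranked 346th and AOX1D 864th in likeness to AOX1A. The 8 nearest were BIGYIN (0.960), AT1G03290 (0.958), RHL41 (0.956), NPGR2 (0.955), CAF1b (0.955), AT1G26690 (0.955), VAMP727 (0.953) and AT5G13200 (0.951).

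The ChIP-seq lists held 1143 peaks present with Tm and removed where shared with DMSO: 130, 92 and 454 for bZIP28 and 250, 47 and 170 for bZIP60 at 0, 12 and 24 h. None of the 10 genes had the centre of a peak within 1000 bp of its start in any of the 6 lists. By the same rule 0.435%, 0.26% and 1.37% of 31510 genes had a peak of bZIP28 and 0.841%, 0.127% and 0.562% a peak of bZIP60 at 0, 12 and 24 h, so that a count of 0 among 10 genes does not set them apart. Within 2000 bp there was 1 such centre, near NDA2, where a bZIP60 peak of 0 h had its near edge 1768 bp from the start and is assigned to the gene AT2G29995. The next nearest were a bZIP60 peak of 0 h at 3205 bp from AOX1A and a bZIP60 peak of 24 h at 3903 bp from NDA1, and the nearest peak to AOX1D lay at 51803 bp. The same lists held peaks at the promoter of BIP3 for bZIP28 at all 3 time-points and for bZIP60 at 0 h. Among the other mitochondrial lists, peaks of the promoter class lay at AT12CYS-1 (bZIP28, 24 h), HRE2 (bZIP60, 0 h) and MTHSC70-2, a matrix HSP70 gene (bZIP60, 0 and 24 h). Each list pools its replicates, so that no test between time-points was made, and a peak below the authors' threshold would not be listed.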

How the data were processed

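Gene expression was measured by RNA-seq in 54 libraries of whole seedlings. The authors trimmed reads with cutadapt 1.8.1, aligned them to TAIR10 with TopHat2 2.0.14 and Bowtie2 2.2.4, and deposited FPKM values per gene from Cufflinks 1.3.0. FPKM values are not counts, so that a count test could not be used and reads per gene are unknown. For ChIP-seq the authors called peaks with MACS2 2.1.2 after Bowtie 1.1.2, kept those reproduced between replicates and removed those shared with DMSO unless stronger in Tm. The deposited peak lists hold positions and an enrichment signal, of which the positions and, for 1 alternative, the signal were used.

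From the FPKM, log2(FPKM + 1) was computed for 21864 genes over 1 FPKM in at least 1 library and tested with limma 3.58.1 (trend, R 4.3.3), fitting only the groups compared. P-values were adjusted by Benjamini-Hochberg over all 21864 genes in each comparison. Calls needed an adjusted p under 0.01 with an absolute difference over 1, and differences between genotypes or times an adjusted p under 0.05. On simulated data with 200 of 21864 genes changed by 2 on the log2 scale, 92.5% were recovered in the comparison of Tm with DMSO in Col-0 at 12 h, with 0 false calls, and 94.5% in that of bzip28-2 with Col-0 at 12 h, with 11. Changes were planted only in genes above a floor on mean level, which leaves out NDB4 and AOX1D, and with independent normal noise. These rates thus do not describe low genes or smaller changes. Replicates are separate pools of seedlings, and the p-values measure the spread between these pools, with no replicate term in the main tests. All 10 genes were to be named, with the genes of other lists named by the largest called difference in Col-0. The members and lists were chosen with earlier results of these data known. Motifs and starts were read from TAIR10.1, in which 97.4% of promoter-class peaks lay within 1000 bp of the start of their named gene. Alternatives were another pseudocount, scaling, filters, no mean-variance trend, a joint fit of the 54 libraries, a replicate block, another p threshold, each library left out, and wider peak or motif criteria.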

Additional observations from a re-analysis of the deposited data

Results flagged for a closer look

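The effect of Tm on AOX1D at 12 h differed between genotypes by a test of the difference itself, by 1.59 between bzip28-2 and Col-0 and by 2.23 between bzip60-2 and Col-0, on the log2(FPKM + 1) scale as for all values here.

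The effect of Tm differed between 12 h and 0 h by the same kind of test for 18 pairs of gene and genotype. In bzip28-2 the differences were 0.64 for AOX1A, 3.16 for AOX1D, -1.59 for NDA1, 2.28 for NDA2 and 1.40 for DIC2. In bzip60-2 they were 1.00 for AOX1A, 3.52 for AOX1D, -2.82 for NDA1, 2.33 for NDA2, 0.91 for NDB2 and 1.12 for AT12CYS-2. In Col-0 they were 0.85 for AOX1A, 1.71 for AOX1D, -1.27 for NDA1, 2.34 for NDA2, 0.45 for NDB2, 1.35 for DIC2 and 1.47 for OM66.

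Between 24 h and 12 h the effect differed by 1.82 for NDA1, -0.65 for NDA2 and -1.27 for AT12CYS-2 in bzip60-2, and by 2.99 for AOX1D and 0.65 for NDB2 in Col-0. With 3 replicates a group, single samples were not tested for standing apart.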

How the results depend on the processing

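The reads per library are unknown, so that no counting error can be given for low genes such as NDB4 and mock AOX1D, and with 3 replicates a group small differences were not resolved. The difference in the effect of Tm on AOX1D between each mutant and Col-0 at 12 h kept its call under each alternative and without each library. The direct difference of AOX1D between mutant and Col-0 under Tm did not. Beside the 31 calls between Tm and DMSO, there were 33 with a pseudocount of 0.1, 31 with median-ratio scaling, 28 with no filter, 35 of 81 comparisons with a mean FPKM of at least 1 (NDB4 drops out), 32 without a trend, 38 in 1 fit over 54 libraries, 22 with the replicate block and 36 with the other p threshold (0.05 for calls and 0.01 for differences of effects). In the same order, beside the 23 changes of effect between time-points there were 23, 19, 20, 25 of 54, 22, 23, 20 and 15. Whether the replicate numbers pair the libraries was not settled. Of 27 same-numbered pairs, 5 correlated over 0.1 (range -0.28 to 0.13), and 9 of 27 Tm-treated libraries correlated best with their own number. In Col-0 most did so and in bzip60-2 none. The paper describes recovery plates split between Tm-treated and DMSO-treated seedlings as a replicate, so that the replicate block may apply.

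For bzip28-2, the 1 member called at 0 h became 0 with no filter or the replicate block, 2 with a mean FPKM of at least 1 or the other p threshold, and 3 in 1 fit over 54 libraries, and the 3 called at 24 h became 5, 7, 0 and 6 with the mean filter, the single fit, the block and the other p. For bzip60-2 the 5 at 24 h became 2 with the block. Differences between genotypes gave 1 in place of 0 for bzip28-2 at 24 h in the single fit, and 2 in place of 1 for bzip60-2 at 12 h with the mean filter or the single fit. Differences from 12 to 24 h gave 1 in place of 2 in Col-0 with the single fit or the other p, 1 in place of 0 in bzip28-2 with the single fit, and 1 and 0 in place of 3 in bzip60-2 with the block and the other p. Between bzip28-2 and Col-0 the count with Tm at 12 h was 0 in place of 1 with scaling, no filter or the block, and with DMSO at 24 h 1 in place of 0 in the single fit. Between bzip60-2 and Col-0 with Tm, the counts in the single fit were 3 at 0 h, 2 at 12 h and 2 at 24 h, with the other p 1, 2 and 1, and at 12 h 2 with the mean filter and 0 with the block, in place of 0, 1 and 0. With DMSO they were 2, 2 and 1 in the single fit, and 1 at 12 h with the other p, in place of 0. The mock time-points gave 2 and 3 in the single fit, 0 and 0 with the block and 2 and 3 with the other p, in place of 1 and 1. The cause was not tested.

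Median-ratio scaling turned UPOX in Col-0 at 12 h to -0.10, from 0.07, and DIC2 in bzip60-2 at 0 h to 0.03, from -0.04. It moved the median of all genes from 0.08 to -0.05 in Col-0 at 12 h and from 0.11 to 0.00 in bzip28-2 at 24 h, and the share of higher calls over all genes from 80.1% to 64.8% in Col-0 at 12 h, from 39.6% to 58.4% for bzip28-2 against Col-0 in the effect at 12 h and from 33.6% to 58.5% for bzip60-2. In the number of genes called, the replicate block moved the 332, 186 and 208 at 0 h in bzip28-2, bzip60-2 and Col-0 to 0, 0 and 3, the 1252 and 1385 at 24 h in bzip28-2 and bzip60-2 to 1 and 263, and the 3107 at 12 h in bzip60-2 to 1584. The single fit gave 546, 413 and 382 at 0 h and 2555 for bzip28-2 at 24 h, and the 913 genes for bzip28-2 against Col-0 in the effect at 12 h became 531 with scaling and 485 in the single fit. Leaving out 1 library turned the sign of differences near 0, with ranges of -0.13 to 0.11 and -0.55 to 0.10 for AT12CYS-2 in bzip28-2 and bzip60-2 at 0 h, -0.26 to 0.18 and -0.07 to 0.19 for DIC2 in bzip60-2 at 0 and 12 h, -0.13 to 0.16 for NDA1 and -0.03 to 0.27 for NDA2 in Col-0 at 0 h, -0.01 to 0.08 and -0.14 to 0.09 for NDB4 in bzip60-2 at 12 and 24 h, and -0.11 to 0.18, -0.37 to 0.29 and -0.18 to 0.12 for UPOX in Col-0 at 12 h, Col-0 at 24 h and bzip60-2 at 24 h. Counts of members ranged from 0 to 1 for bzip28-2 at 0 h, 0 to 7 for bzip28-2 at 24 h and 2 to 5 for bzip60-2 at 24 h. They ranged from 1 to 2 for bzip60-2 against Col-0 in the effect at 12 h and 0 to 1 for bzip60-2 against bzip28-2. From 12 to 24 h they ranged from 1 to 3 in Col-0, 0 to 1 in bzip28-2 and 0 to 3 in bzip60-2. For mock Col-0 they ranged from 0 to 2 at 12 h and 0 to 1 at 24 h. For the direct comparison with Tm at 12 h they were 0 without any library for bzip28-2 and 0 to 1 for bzip60-2. A peak window of 2000 bp gave 1 member in place of 0 for bZIP60 at 0 h. Allowing 1 mismatch, the mitochondrial dysfunction motif was in 5 members, beside 47% of all promoters, and ERSE-I in 2, beside 12.4%, and before the coding start, chosen after seeing the data, the mitochondrial dysfunction motif was in 5.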
